A study of Mus musculus with 9 samples.

Results

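Meg3, Rian and Mirg are long noncoding RNA genes of the imprinted Dlk1-Meg3 cluster on mouse chromosome 12. They were taken by gene name from a table of transcript levels in islets of the pancreas, where endocrine cells secrete insulin and other hormones. The table holds 26375 transcript lines under 10962 names, and after 480 lines with a copy suffix were left out, 25895 lines under 10706 names remained. The 3 genes account for 16 of these lines, with 5 lines for Meg3, 8 for Rian and 3 for Mirg. Islets came from female mice that were virgin (5 libraries, replicates 1 to 5) or pregnant at the gestational day in the name GD14.5 (4 libraries, replicates 1 to 4). The labels give no strain, age or allele, and leave unsaid how many animals went into each library. All libraries were made from total RNA by oligo(dT) enrichment. A p-value here therefore measures the spread between these libraries, which may be technical.

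In this cluster the noncoding RNAs are transcribed from the maternally inherited chromosome, while the coding genes Dlk1, Rtl1 and Dio3 are expressed from the paternal one. The choice is set by a differentially methylated region between Dlk1 and Meg3. Meg3 is a mostly nuclear RNA, Rian carries C/D box small nucleolar RNAs, and Mirg overlaps the distal part of a large microRNA cluster. The cluster is known to be active in pancreatic beta cells, and islets respond to pregnancy through prolactin and placental lactogen, which act on STAT5.

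The spans of the 3 genes lie on the plus strand of GRCm38.p6 in the RefSeq annotation. Meg3 covers 109540996 to 109571729, Rian 109603945 to 109661716 and Mirg 109734981 to 109749458 on chromosome 12. The gaps between them are 32.2 kb and 73.3 kb, and the distance from the start of Meg3 to the end of Mirg is 208.5 kb. RefSeq places 11 small nucleolar RNA genes inside the Rian span, 8 between Rian and Mirg, and 0 inside the Meg3 and Mirg spans. Of the 57 microRNA genes on the plus strand between Dlk1 and Dio3, 2 lie inside Meg3, 3 inside Rian and 10 inside Mirg. A further 13 lie between Meg3 and Rian, and 29 between Rian and Mirg. The microRNAs themselves were not measured here.

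Mature microRNAs that lie inside each genomic span are shown as examples; whether the measured transcripts contain them is not known. They are printed from RefSeq (GRCm38.p6) with bases 2 to 8, the seed that pairs with targets, in capitals. Both arms of Mir770 represent Meg3, both arms of Mir370 represent Rian, and both arms of Mir410 represent Mirg, with the 2 microRNAs inside Mirg that share a seed.
mmu-miR-770-5p (Meg3): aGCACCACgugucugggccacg
mmu-miR-770-3p (Meg3): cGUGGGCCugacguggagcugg
mmu-miR-370-5p (Rian): cAGGUCACgucucugcaguu
mmu-miR-370-3p (Rian): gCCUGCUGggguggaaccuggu
mmu-miR-410-5p (Mirg): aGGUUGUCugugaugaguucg
mmu-miR-410-3p (Mirg): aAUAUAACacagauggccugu
mmu-miR-453 (Mirg): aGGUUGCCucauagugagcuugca
mmu-miR-496a-5p (Mirg): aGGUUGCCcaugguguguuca
The seed GGUUGCC of miR-453 and miR-496a-5p was found in 2 mature mouse microRNAs of that table, these ones. Among the 105 mature microRNAs of the plus strand between Dlk1 and Dio3, 8 seeds occur more than once, and each of these occurs in 2 names. One of them links miR-370-5p of Rian to miR-1193-3p between Rian and Mirg, and another links miR-410-5p of Mirg to miR-494-5p between Rian and Mirg.

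The window from 250 bases before to 50 after the Meg3 start is printed because Meg3 comes first of the 3 genes and has the highest mean level (RefSeq, GRCm38.p6, chr12:109540746-109541045, plus strand). Capitals mark, in order, a CCAAT match, the cAMP response element TGACGTCA, and an overlapping pair of TATAAA matches on opposite strands.
Meg3 start window: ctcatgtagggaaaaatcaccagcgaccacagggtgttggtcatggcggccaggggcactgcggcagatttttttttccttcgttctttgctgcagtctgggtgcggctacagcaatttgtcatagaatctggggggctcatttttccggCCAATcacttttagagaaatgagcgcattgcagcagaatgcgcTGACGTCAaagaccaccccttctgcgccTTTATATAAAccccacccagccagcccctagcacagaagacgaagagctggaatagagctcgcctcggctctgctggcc
All motifs were searched on both strands in the 32851 RefSeq windows of the same length. TGACGTCA was in 1.79% of them, TATAAA in 13.6%, CCAAT in 37.4% and TTCNNNGAA, the core that STAT5 binds, in 8.30%. TGACGTCA begins 57 bases before the Meg3 start and was in neither the Rian window nor the Mirg window. TTCNNNGAA was found 1 time in the Rian window and not in those of Meg3 and Mirg. The Meg3 window held 13 CpG dinucleotides, that of Mirg 10 and that of Rian 0, against a median of 7 over all windows. RefSeq gives Meg3 a second start, whose window (chr12:109545148-109545447) held 1 CpG and no match to any of the 4 motifs. The measured lines could not be assigned to either start. These matches describe letters in a window and not binding.

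The levels are FPKM (fragments scaled to transcript length and library size), summed over the lines of a gene, so that they are per length. Meg3 stood at 49.0, 128, 64.2, 173 and 198 FPKM in virgin libraries 1 to 5, and at 54.9, 84.2, 78.9 and 154 in GD14.5 libraries 1 to 4. Rian stood at 28.95, 69.7, 46.5, 152 and 202 FPKM in the virgin libraries and at 33.2, 53.5, 50.8 and 147 at GD14.5. For Mirg the values were 5.35, 13.4, 8.60, 20.6 and 28.3 FPKM in the virgin libraries and 4.78, 8.36, 9.19 and 21.9 at GD14.5. In all 3 genes virgin 4, virgin 5 and GD14.5 replicate 4 were the highest libraries, the lowest were virgin 1 and GD14.5 replicate 1, and the groups overlapped.

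**Figure D1:**
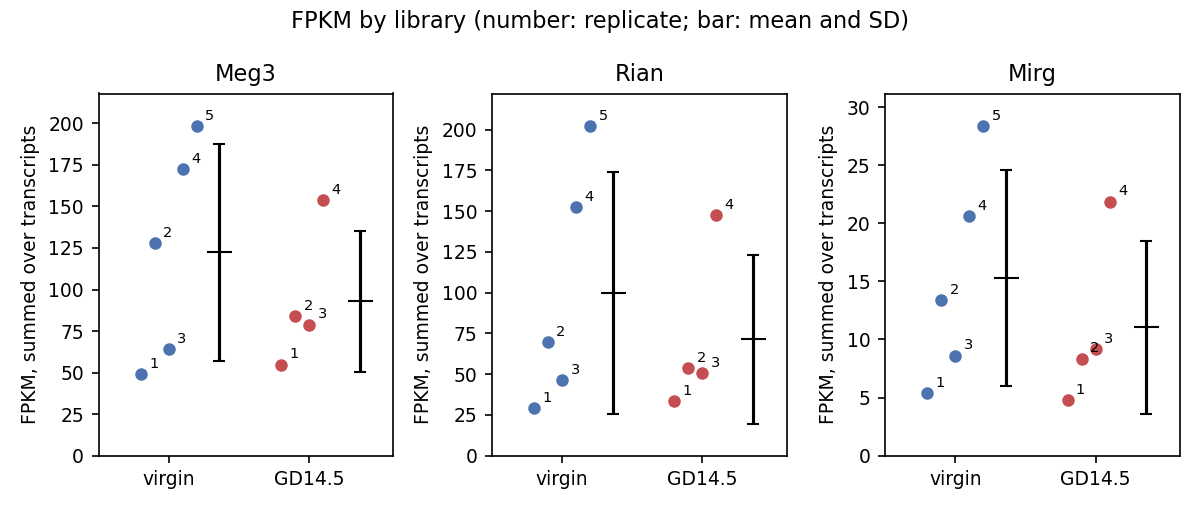
FPKM of Meg3, Rian and Mirg (vertical axes, from 0) in each virgin and GD14.5 library; numbers are replicates and bars the mean and SD of 5 and 4 libraries. Virgin 4, virgin 5 and GD14.5 replicate 4 lie highest in each panel, and the groups overlap.

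The same libraries had the largest sums of the table. The summed FPKM ranged from 5415 to 20531, with virgin 5, virgin 4 and GD14.5 replicate 4 on top, and the reads behind these sums are unknown. The deposited values thus carry differences between libraries that span more than the difference between groups: Meg3 varied 4.04 times, Rian 6.98 times and Mirg 5.30 times within the virgin group. As a share of a library's sum, Meg3 was steadier, with a virgin mean of 0.989% ± 0.119 (SD, n = 5) and a GD14.5 mean of 0.972% ± 0.0899 (SD, n = 4). Rian took 0.735% ± 0.175 and 0.698% ± 0.214, and Mirg 0.120% ± 0.0148 and 0.109% ± 0.0314. Of the 10706 names, RefSeq classes 9300 as long noncoding RNA genes and 1284 as coding, so ranks and shares refer mostly to noncoding RNAs and not to all transcripts of islets. Meg3 ranked 5th or 6th among all names in each of the 9 libraries, Rian between 4th and 16th, and Mirg between 61st and 152nd. With copy lines left out, the order Meg3, Rian, Mirg held in 8 of 9 libraries, and in virgin 5 Rian was above Meg3 by 1.02 times.

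Cell makeup could not be checked. Of 28 marker genes of islet cells, exocrine cells, vessels, stroma, immune cells and Schwann cells, 2 had a line. These were Sox9, a ductal marker, at no more than 0.01 FPKM, and Col1a1, of stroma, listed at 0 in all 9 libraries. The others, the islet hormones included, are not analysed here. In such bulk samples fewer cells of a type and less RNA per cell cannot be told apart.

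The first comparison asked whether the 3 RNAs differ between GD14.5 and virgin islets. None of the 3 differed beyond the spread of the libraries. The virgin mean of Meg3 was 122 ± 65.3 FPKM (SD, n = 5) and its GD14.5 mean 93.0 ± 42.6 (SD, n = 4), with a log2 fold change of −0.30 ± 0.60 (SE; 95% interval −1.53 to 0.93; limma adjusted p = 0.838). Rian was at 99.9 ± 74.1 and 71.25 ± 51.6 FPKM, a log2 fold change of −0.37 ± 0.65 (SE; interval −1.72 to 0.99; limma adjusted p = 0.828). Mirg was at 15.3 ± 9.29 and 11.04 ± 7.45 FPKM, a log2 fold change of −0.43 ± 0.58 (SE; interval −1.64 to 0.78; limma adjusted p = 0.817). Each interval reaches below −1 and above 0. The fold changes were computed on log2(FPKM + 0.5) over the 2377 gene names with a mean of at least 0.5 FPKM, and p was adjusted over all of them.

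Limma called 0 of the 3 genes, and 0 had an unadjusted p under 0.05. Over all loci it called 0.168%, with 4 higher (0.168%) and 0 lower (0.0%) at GD14.5, with 26 and 34 at an unadjusted p under 0.05. All loci together had a median of −0.30 on this log2 scale, so the members lay near the middle of the table. The FPKM of the 2 groups did not overlap at 0.589% of loci and at 0 of the 3 genes. After the libraries were set to equal medians the median of all loci was −0.02, and the members were at −0.01 ± 0.24 for Meg3 (95% interval −0.56 to 0.53), −0.08 ± 0.35 for Rian (−0.87 to 0.71) and −0.14 ± 0.27 for Mirg (−0.76 to 0.47; SE). The limma adjusted p was then 0.993, 0.975 and 0.937, while 0.968% of loci were called (0.926% higher and 0.0421% lower). A fit that compared libraries of the same replicate number, in which virgin 5 has no partner, called 1.09% of loci (0.968% higher and 0.126% lower) and again 0 of the 3.

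The labels do not say that libraries of the same number were paired, so pairs here are by number only. Between such libraries, each of the 3 genes was lower at GD14.5 in 2 of 4 pairs. Meg3 and Rian were lower in pairs 2 and 4 and higher in pairs 1 and 3, and Mirg was lower in pairs 1 and 2 and higher in pairs 3 and 4.

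**Figure D2:**
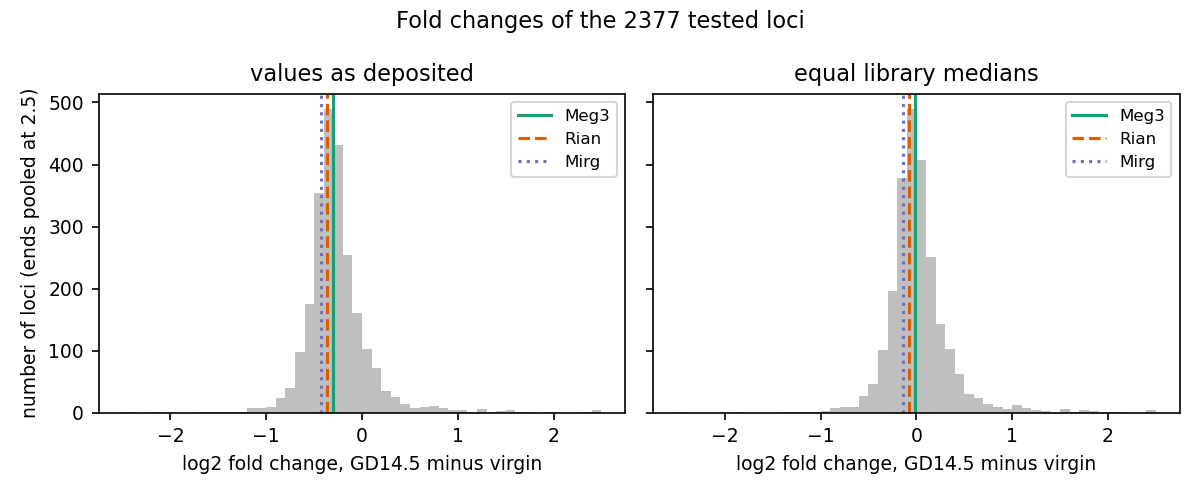
Distribution of the log2 fold change, GD14.5 minus virgin, over the 2377 tested loci (grey; vertical axis, number of loci, with values beyond 2.5 pooled in the end bins), as deposited and with equal library medians; lines mark Meg3, Rian and Mirg. All 3 lie in the central part of both distributions, at −0.30, −0.37 and −0.43 as deposited.

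A factor common to all values of a library cancels in a ratio between genes, so the second comparison used ratios. The FPKM of Rian was 59.1%, 54.4%, 72.35%, 88.2% and 102% of that of Meg3 in virgin libraries 1 to 5. At GD14.5 it was 60.6%, 63.6%, 64.5% and 95.8% in libraries 1 to 4. The ratio was highest in virgin 5, GD14.5 replicate 4 and virgin 4, the 3 libraries with the largest sums, with log2 ratios of −0.18 to 0.03 against −0.88 to −0.47 in the other 6. The part of the summed level in this shift was not tested. The group means of this log2 ratio were −0.45 ± 0.38 (SD, n = 5) and −0.52 ± 0.31 (SD, n = 4), a difference of −0.07 ± 0.23 (SE; exact two-sided permutation p = 0.794).

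The FPKM of Mirg was 10.9%, 10.5%, 13.4%, 11.9% and 14.3% of that of Meg3 in virgin libraries 1 to 5. In GD14.5 libraries 1 to 4 it was 8.71%, 9.93%, 11.7% and 14.2%. The difference in log2 ratio was −0.15 ± 0.17 (SE; exact permutation p = 0.405), with GD14.5 lower in 3 of 4 same-numbered pairs. It was −0.33 with only the highest line of each gene (exact permutation p = 0.119), and −0.04 without GD14.5 replicate 1 against −0.27 without GD14.5 replicate 4. The lowest and the highest of these ratios were in GD14.5 replicate 1 and virgin 5, and the groups overlapped.

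Against Rian, Mirg stood at 18.5%, 19.2%, 18.5%, 13.5% and 14.03% in the virgin libraries and at 14.4%, 15.6%, 18.1% and 14.8% at GD14.5. Virgin 1, 2 and 3 lay above virgin 4 and 5, and the GD14.5 values lay between the virgin extremes. The difference in log2 ratio was −0.08 ± 0.13 (SE; exact permutation p = 0.571), with GD14.5 lower in 3 of 4 same-numbered pairs. Without virgin 4, virgin 5 and GD14.5 replicate 4 it was −0.23 and the groups did not overlap (exact permutation p = 0.1, the smallest that 3 against 3 libraries allow). With only the highest line of each gene it was −0.19 (exact permutation p = 0.175). Adjusted over the 3 ratios, p was 0.794 for each, and 0.00794 is the smallest p that 5 against 4 libraries allow.

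**Figure D3:**
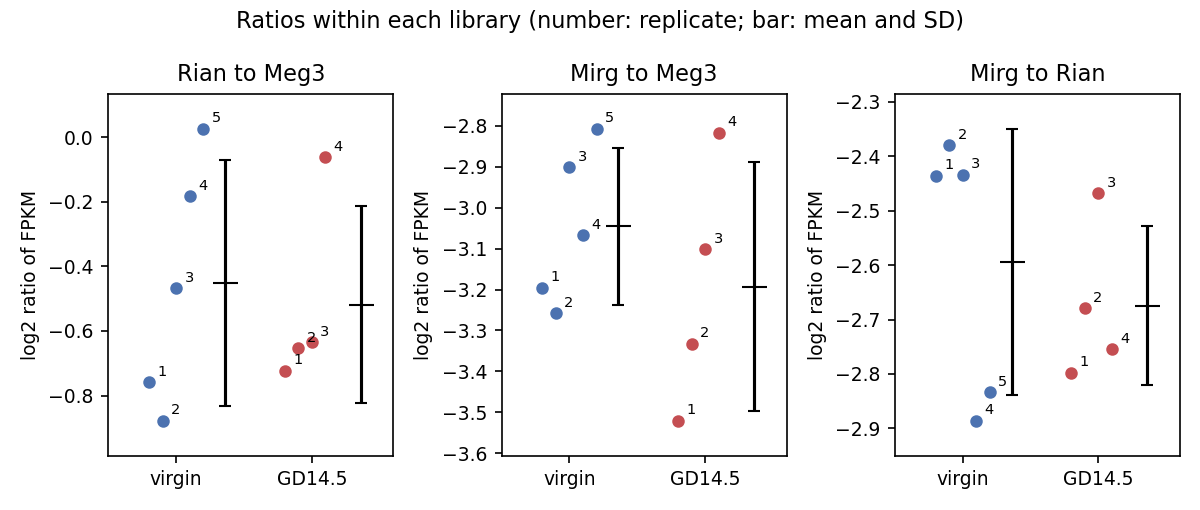
Log2 ratio of FPKM within each library (vertical axes) for Rian to Meg3, Mirg to Meg3 and Mirg to Rian, by group; numbers are replicates and bars the mean and SD. Virgin 4, virgin 5 and GD14.5 replicate 4 have the highest ratios of Rian to Meg3, from −0.18 to 0.03.

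The third comparison asked whether the transcripts of each gene keep their shares. The lines carry no transcript identifier, so they are numbered in the order of the table, and RefSeq lists only 3 transcripts for Meg3, 1 for Rian and 1 for Mirg. A share is the FPKM of a line as a percent of the summed FPKM of its gene. In Meg3, transcript 1 made up 48.7% on average, transcript 3 28.0%, transcript 5 18.6% and transcript 4 4.68%, and transcript 2 was at no more than 0.01 FPKM in any library.

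Meg3 transcript 1 took 45.1%, 49.7%, 44.3%, 45.4% and 47.4% of Meg3 in virgin libraries 1 to 5. In GD14.5 libraries 1 to 4 it took 50.3%, 51.7%, 51.8% and 52.7%, so that all GD14.5 libraries lay above all virgin ones. The means were 46.4% ± 2.16 (SD, n = 5) and 51.6% ± 0.994 (SD, n = 4), a difference of 5.23 percentage points (exact two-sided permutation p = 0.0159). With no overlap between the groups, the share was higher at GD14.5 in any pairing of libraries, the 4 same-numbered pairs included.

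The share of Meg3 transcript 3 was 30.3%, 28.5%, 31.2%, 28.6% and 28.9% in virgin libraries 1 to 5 and 28.3%, 25.3%, 26.6% and 24.5% in GD14.5 libraries 1 to 4. Again the groups did not overlap, although virgin 2 at 28.5% and GD14.5 replicate 1 at 28.3% lay close together. The means were 29.5% ± 1.19 and 26.2% ± 1.64 (SD, n = 5 and 4), a difference of −3.35 points (exact permutation p = 0.00794, the smallest possible). The FPKM of transcript 1 was 1.42 to 1.74 times that of transcript 3 in virgin islets and 1.78 to 2.15 times at GD14.5.

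Neither share passed when p was adjusted over the 2994 transcripts tested, each with a mean share of at least 5%. Their genes had several lines, a mean of at least 0.5 FPKM and a value above 0 in every library. The adjusted exact permutation p was 0.642 for transcript 1 and 0.553 for transcript 3, and 0.0% of transcripts passed, although 5.51% had an unadjusted exact p under 0.05. An exact p on 5 against 4 libraries cannot fall below 0.00794. Adjusted over 2994 tests, it could pass only if very many transcripts reached that minimum together. The adjusted exact test therefore cannot decide whether a single share shifted. Over the 2994 transcripts the groups did not overlap at 2.67%, and at 2 of the 10 tested transcripts of the 3 genes. Shares of one gene sum to 100%, so these 2 are not separate observations. Limma on the shares, a test added after the data were seen, gave an adjusted p of 0.251 and 0.446. It called 0.1% of the 2994 transcripts, with 6.38% at an unadjusted p under 0.05. Without virgin 4, virgin 5 and GD14.5 replicate 4 the differences were 4.90 and −3.31 points.

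The other Meg3 shares overlapped between groups. Transcript 4, below the 5% minimum, ranged from 3.295% to 7.04% in virgin islets and from 2.11% to 4.70% at GD14.5, and was lower in 4 of 4 pairs. Transcript 5 was at 18.8% ± 2.20 and 18.4% ± 1.89 (SD, n = 5 and 4; exact permutation p = 0.802).

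In Rian, transcripts 4 and 5 held most of the signal, with mean shares of 40.9% and 33.5%, and transcripts 1 and 8 held 12.9% and 6.59%. Transcripts 2, 3, 6 and 7 were at 3.18% or less. The share of transcript 5 was 31.4%, 32.3%, 30.7%, 37.2% and 36.5% in virgin libraries 1 to 5 and 32.0%, 31.5%, 31.6% and 38.3% at GD14.5. It was thus 36.5% to 38.3% in virgin 4, virgin 5 and GD14.5 replicate 4 and 30.7% to 32.3% in the other 6 libraries. Transcript 4 showed the reverse, at 34.7% to 37.6% in those 3 libraries and 40.1% to 44.9% in the others. The same 3 libraries had the highest ratio of Rian to Meg3, and the part of their large sums in this was not tested.

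Between groups the tested Rian shares overlapped. Transcript 5 differed by −0.274 points (exact permutation p = 0.952), transcript 4 by 2.06 points (exact permutation p = 0.429), and transcript 8 by −0.845 points (exact permutation p = 0.167). For transcript 1 the difference was −0.0534 points (exact permutation p = 0.937). The transcript 4 difference was 0.747 points without virgin 4 and 3.52 without GD14.5 replicate 4.

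Mirg had 3 transcripts with mean shares of 48.1%, 18.3% and 33.6%. Transcript 1 ranged from 42.3% to 54.2% in virgin islets and from 41.6% to 50.4% at GD14.5. Transcript 2 was at 17.0% ± 3.83 and 19.8% ± 1.85 (SD, n = 5 and 4; exact permutation p = 0.270). This difference of 2.78 points ranged from 1.92 to 4.30 with 1 library left out (unadjusted exact permutation p from 0.0286 to 0.446). The largest difference and the smallest p came without virgin 3, which has the highest virgin share, 23.1%. Without virgin 4, virgin 5 and GD14.5 replicate 4 the difference was 1.22. Transcript 3 was at 34.3% ± 3.96 and 32.6% ± 2.62 (exact permutation p = 0.476). All 3 shares overlapped between the groups.

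**Figure D4:**
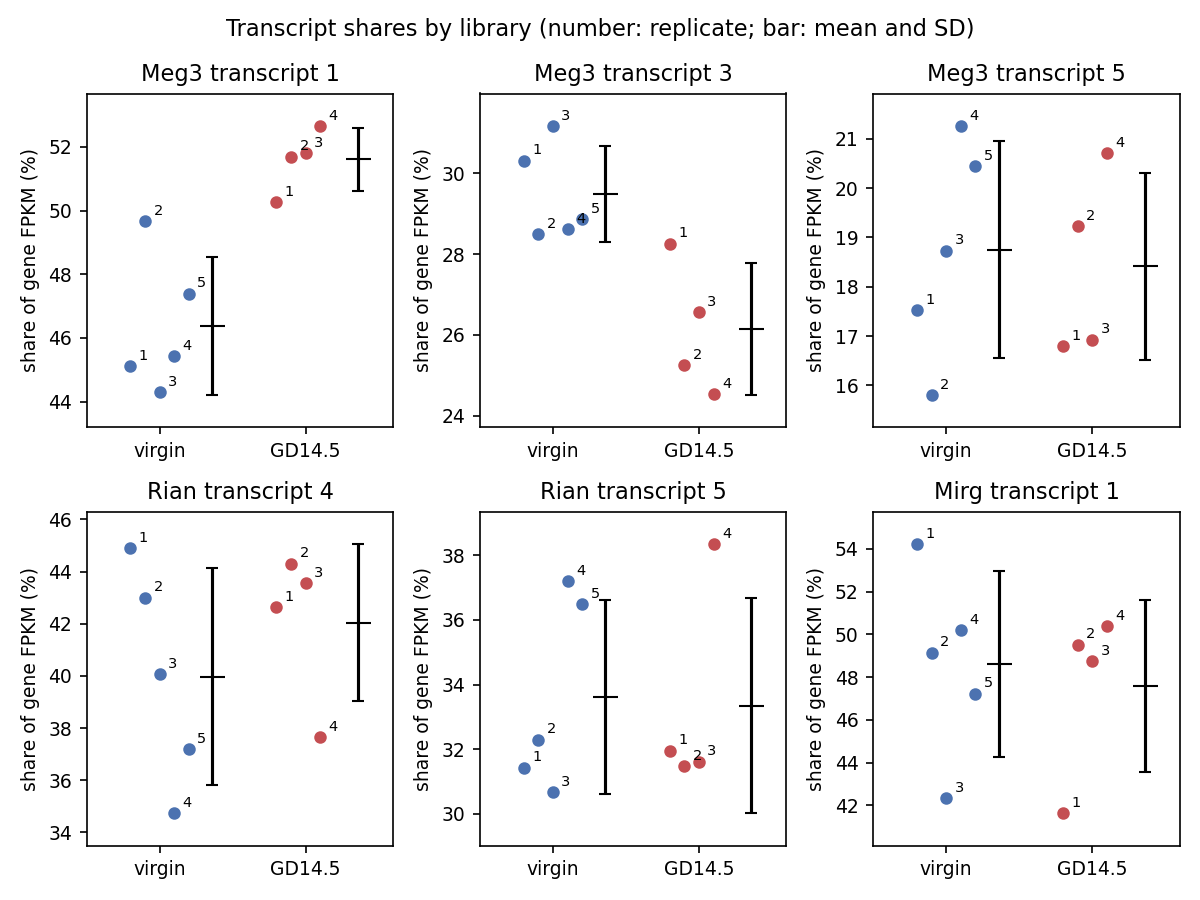
Share of the gene's FPKM (vertical axes, percent; axes do not start at 0) for 6 abundant transcripts of Meg3, Rian and Mirg in each library; numbers are replicates and bars the mean and SD. GD14.5 libraries lie above virgin ones for Meg3 transcript 1 and below for transcript 3, while the 3 libraries with the largest sums lead for Rian transcript 5.

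Some lines of these genes exist again under the gene name followed by the suffix 2, and these copies were left out of all sums. Copies exist for Meg3 transcripts 1, 2 and 5 and for Rian transcript 5. Their values equalled those of the gene's own line in all 9 libraries, except that Meg3 transcript 5 was at 36.7 FPKM in virgin 4 and its copy at 32.1. Of the 21 copies in the table with a mean of at least 0.5 FPKM and a partner line, 16 were equal to it in all libraries. No source used here says how reads were shared between a line and its copy. If they were split, the shares printed here understate the lines that have a copy. The levels of Meg3 and Rian would then be understated too, while Mirg has no copy. Ranks and the ratios between the 3 genes would shift as well. In virgin 5 the copies of Meg3 transcripts 1 and 5 were at 93.9 and 40.5 FPKM, and that of Rian transcript 5 at 73.7. With these added, Meg3 would stand above Rian in virgin 5. With each copy added to its line, an alternative chosen after the data were seen, the mean share of Meg3 transcript 1 was 58.3%, of transcript 3 16.8% and of transcript 5 22.1%, and that of Rian transcript 5 was 50.1%. GD14.5 minus virgin was then 4.37 points for Meg3 transcript 1 and −2.53 for transcript 3. Neither overlapped between groups, but the groups nearly touched. For transcript 1 the highest virgin share was 60.02% and the lowest GD14.5 share 60.18%. For transcript 3 the lowest virgin share was 17.2% and the highest GD14.5 share 16.92%.

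The neighbouring loci of the cluster were looked up from a list and by position between Begain and Ppp2r5c. Of 121 genes, 15 had a line and 7 reached the minimum for testing. Meg3, Rian and Mirg are counted in both numbers, so 12 others had a line and 4 others were tested. Among the others is Yy1, a listed transcription factor gene outside the interval. Limma called 0 of the 7 in either direction. The median log2 fold change of the 7 was −0.37, the value of Rian itself, against −0.30 over all loci. Of the coding genes of the list, Yy1 had a line; Dlk1, Rtl1 and Dio3 are not analysed here.

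The strongest neighbour was 6430411K18Rik, the RNA antisense to Rtl1, which starts 50.5 kb from the Meg3 start (109591537 to 109592851). It was at 4.40, 10.4, 8.26, 14.51 and 20.8 FPKM in virgin libraries 1 to 5 and at 4.14, 5.90, 7.02 and 14.7 at GD14.5. Virgin 5, GD14.5 replicate 4 and virgin 4 were again the highest libraries. The level was 8.11% to 12.9% of Meg3 in virgin islets and 7.01% to 9.57% at GD14.5. The log2 fold change was −0.51 ± 0.55 (SE; limma adjusted p = 0.817). No source used here gives the strand setting, so reads from Rtl1 on the opposite strand cannot be told apart from it. The RefSeq span of Rtl1 also overlaps the end of Meg3 and the start of Rian, to which the same applies.

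Gm40576, a noncoding locus 682.1 kb from the Meg3 start, was at 2.67, 5.55, 3.18, 8.15 and 10.8 FPKM in the virgin libraries and 2.98, 2.60, 2.97 and 4.90 at GD14.5. Relative to Meg3 it was at 4.33% to 5.45% in virgin islets and at 5.43%, 3.09%, 3.77% and 3.19% at GD14.5. In 3 of 4 GD14.5 libraries this ratio was therefore below the lowest virgin ratio, which was not tested. In FPKM only GD14.5 replicate 2, at 2.60, lay below the lowest virgin value of 2.67. Its log2 fold change was −0.63 ± 0.48 (SE; limma adjusted p = 0.817). Gm19605, inside Ppp2r5c, had −0.21 ± 0.45 and Yy1 −0.12 ± 0.40 (SE; limma adjusted p = 0.844 and 0.886).

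The remaining 8 loci of the interval were low. Gm34081, which ends just before the Meg3 start, ranged from 0.04 to 0.26 FPKM, and Gm34667 from 0.07 to 0.26. Dio3os, the noncoding partner of the thyroid hormone deiodinase gene Dio3, was above 0 in 3 of 9 libraries and at most at 0.09 FPKM. Gm34785 was listed at 0 in all libraries, and Gm52002, Gm34017, 3110009F21Rik and Gm40577 did not exceed 0.13 FPKM. Among the loci of the interval with a line, all of them noncoding, Meg3, Rian, 6430411K18Rik and Mirg were therefore the highest. Their means ran from 7.95 to 122 FPKM, ahead of Gm40576 and Gm19605. This does not cover the coding genes of the interval.

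**Figure D5:**
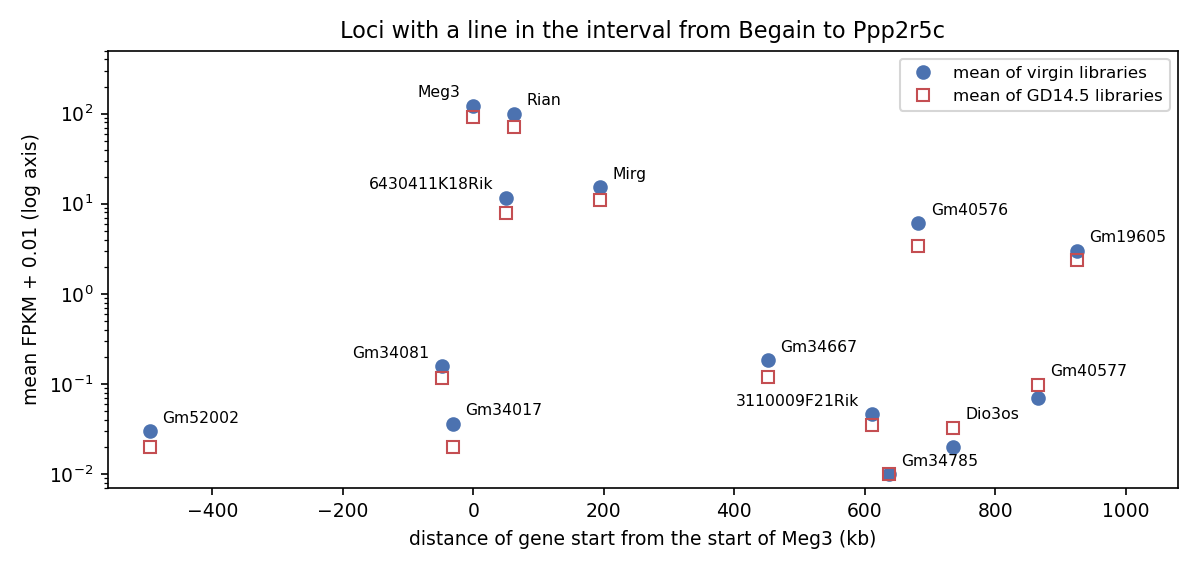
Mean FPKM + 0.01 (vertical log axis) of each locus with a line between Begain and Ppp2r5c, against the distance of its start from the Meg3 start in kb; circles are virgin and squares GD14.5 means. Meg3, Rian, Mirg and 6430411K18Rik stand above the other loci in both groups.

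Genes with a pattern like that of Meg3 were sought by the SD, over the 9 libraries, of the log2 ratio of their FPKM + 0.5 to that of Meg3. A small SD means a nearly constant ratio. Mirg had an SD of 0.22 and ranked 81st of 2376 loci, and Rian an SD of 0.33 and ranked 696th, where the median of all loci was 0.39. Measured from Rian, Mirg ranked 42nd (SD 0.21) and Meg3 195th. Measured from Mirg, Rian ranked 38th and Meg3 40th. Each member thus had many loci outside the cluster with a steadier ratio to it. The 8 loci nearest to Meg3 were 2610306M01Rik (SD 0.11), 4632428C04Rik, Ubn1, Gm51481, Gm33645, 2810410L24Rik, Gm42005 and Gm51773 (SD 0.15). None of these lies on chromosome 12, and limma called 0 of the 8.

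Imprinted noncoding genes elsewhere in the genome were compared as a list. Of 14 names 11 had a line and 7 were tested; limma called 0, and their median log2 fold change was −0.52 against −0.30 over all loci. Peg13, expressed from the paternal chromosome, had means of 30.3 ± 20.8 and 25.01 ± 13.9 FPKM (virgin and GD14.5; SD, n = 5 and 4). Snhg14, which spans the antisense of Ube3a, was at 9.87 ± 6.57 and 5.97 ± 2.85, Kcnq1ot1 at 3.82 ± 2.12 and 2.76 ± 1.06, and Airn at 11.6 ± 6.39 and 7.93 ± 3.47 FPKM. A330076H08Rik was at 64.8 ± 57.1 and 32.1 ± 26.3 FPKM, A230057D06Rik at 38.6 ± 28.4 and 18.96 ± 12.2, and Peg3os at 4.17 ± 4.70 and 1.13 ± 1.04. H19, a maternally expressed RNA like Meg3, did not exceed 0.14 FPKM, and Igf2os, Nctc1 and Zim3 did not exceed 0.26.

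Nuclear RNAs gave a scale for the members. Malat1 was at 2667 ± 1870 and 1848 ± 988 FPKM, Neat1 at 153 ± 113 and 136 ± 52.5, and Xist, which coats the inactive X chromosome, at 98.9 ± 71.8 and 71.8 ± 46.5 (SD, n = 5 and 4). Limma called 0 of these 3, and Miat was below the minimum, at no more than 0.24 FPKM. With copy lines left out, the mean of Meg3 lay between those of Neat1 and Xist in both groups, within the spread of the libraries. Of 18 regulators of the cluster and subunits of the Polycomb repressive complex that Meg3 has been reported to bind, 3 had a line of unknown transcript identity, Dnmt3a, Suz12 and Mef2c. Limma called 0 of them, and the log2 fold changes were −0.72 ± 0.51, −0.09 ± 0.48 and −0.07 ± 0.50 (SE).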

How the data were processed

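The authors deposited 1 table of FPKM for 9 islet RNA libraries, rounded to 2 decimals, with a gene name per transcript line. Per the submitters' processing notes the build was GRCm38.p6. No source used here gives the aligner, quantifier, annotation or strand setting. The 480 of 26375 lines with a copy suffix were left out and lines of one name summed. Values were searched for whole-read steps in 159 short loci; the best step put 30.3% to 50.9% of values within 0.1 of whole numbers, so depth is unknown. Two-sided tests came from limma 3.58.1 (R 4.3.3; eBayes with trend), fitted on log2(FPKM + 0.5) over 2377 loci with Benjamini-Hochberg adjustment at 0.05, checked on simulated data. Ratios and shares had exact permutation tests. Shares were tested over all genes with several lines, a mean of at least 0.5 FPKM and a value above 0 in every library. Named genes are the members, listed genes with a line and the 8 loci of most constant ratio to Meg3. Members and lists were chosen with earlier results of these data known. After group means were removed, same-numbered libraries correlated at 0.49, 0.20, 0.28 and 0.59 across loci, all over 0.1. The numbers were therefore taken as pairs in a second fit, blocked on replicate number. Some libraries of different number correlated above the 0.20 of pair 2. These were virgin 5 with GD14.5 replicate 4 (0.49), virgin 3 with GD14.5 replicate 2 (0.25) and virgin 2 with GD14.5 replicate 1 (0.23). Alternatives changed pseudocount, filter, scaling, block and libraries.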

Additional observations from a re-analysis of the deposited data

Results flagged for a closer look

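Of 32 groups of values, each 1 measure of the 3 genes in 1 group of libraries, 3 had an extreme library under Dixon's test, and about 1.6 would by chance. The log2 ratio of Rian to Meg3 in GD14.5 replicate 4 was −0.0619, against −0.72 to −0.63 in the other 3 GD14.5 libraries. The share of Rian transcript 5 in the same library was 38.3%, against 31.5% to 32.0%. The share of Mirg transcript 3 in virgin replicate 1 was 27.5%, against 34.5% to 37.1% in the other virgin libraries.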

How the results depend on the processing

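Over 23 alternatives limma's adjusted p stayed at or above 0.443 for Meg3, 0.418 for Rian and 0.383 for Mirg, so none was called. Their log2 fold changes spanned −0.58 to 0.03, −0.79 to 0.08 and −0.81 to −0.05. The sign turned for Meg3 (0.0295) and Rian (0.0826) where the replicate block was joined to equal medians, and for Rian on equal medians without virgin 4, virgin 5 and GD14.5 replicate 4 (0.0246), an alternative added after the data were seen. With 1 library left out the ranges were −0.58 to −0.08 for Meg3, −0.79 to −0.03 for Rian and −0.81 to −0.12 for Mirg. The median of the 7 tested cluster loci, Meg3, Rian and Mirg included, moved to −0.0792 on equal medians and to −0.0783 with the replicate block. Loci called higher and lower were 22 and 1 on equal medians, 25 and 6 on equal sums, 24 and 5 after quantile normalization, 23 and 3 with the replicate block, 15 and 0 with the block on equal medians, 13 and 1 without the 3 large libraries, 13 and 0 without them on equal medians, and 3 to 5 and 0 to 1 with 1 library left out.

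The difference in the log2 ratio of Rian to Meg3 turned to 0.0312 without the 3 large libraries and to 0.0534 with the replicate block, and ranged from −0.22 to 0.0534 with 1 library left out, the highest being without virgin 5. The differences in shares turned as follows without the 3 large libraries: Meg3 transcript 5 to 0.292 points, Rian transcript 1 to 0.646, Rian transcript 5 to 0.213 and Mirg transcript 3 to 0.701. With the replicate block they were 0.0798, 0.0803 and 0.441 for Meg3 transcript 5, Rian transcript 1 and Rian transcript 5. With 1 library left out these 4 ranged from −1.11 to 0.286, −0.455 to 0.217, −1.94 to 0.624 and −3.45 to −0.746, and Mirg transcript 1 from −2.62 to 0.934. The causes were not tested. With the replicate block the shares of Meg3 transcripts 1 and 3 differed by 5.48 and −3.50 points, and with 1 library left out by 4.71 to 6.05 and −4.05 to −2.80. The replicate block changed no call of the members, and no exact test on 4 pairs or on 3 against 3 libraries can fall below 0.125 or 0.1. The ratio difference of Rian to Meg3 was −0.15 with only the highest line of each gene and −0.12 with copies added. Limma on the shares and the inclusion of copies were likewise chosen after seeing the data. The depth behind the values is unknown and limits what small differences can be shown.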
